A study of Mus musculus with 27 samples.

Results

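The cardiac myosin heavy and light chains were followed here in 3 mouse pluripotent stem cell lines that were allowed to differentiate without direction. The set held 6 genes, Myh6, Myh7, Myl2, Myl3, Myl4 and Myl7, of 18193 genes on the array. Members were taken as the probe sets annotated with exactly 1 gene symbol that was one of these names, which gave 10 probe sets: 3 for Myl3, 2 each for Myh6 and Myl4, and 1 each for the other 3 genes. Each gene was represented by its brightest probe set on average. A further 2 probe sets carried both Myh7 and Myh6 and were kept apart.

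The lines were R1, an embryonic stem cell line, and 2 induced pluripotent stem cell lines. H9, called 3F in the labels, was reprogrammed with 3 transcription factors and is here a mouse line, not the human line of that name. The other, 19BL, was reprogrammed with 4 and is called 4F. At day 0 the cells of every line were undifferentiated and had been kept on growth-arrested feeder cells in medium with leukemia inhibitory factor (LIF). At day 5 and day 11 they had been taken through embryoid bodies, floating aggregates in which many cell types form side by side, in medium with serum and without LIF. Each of the 9 groups had 3 arrays labelled as biological replicates, 27 in all. With 3 lines in all, a difference between lines is a difference between these cultures. Whether a line is 1 clone, and the names of the factors, are not given in the sources used here.

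Muscle myosin is a motor built from a pair of heavy chains, each of which carries an essential and a regulatory light chain. Myh6 encodes the alpha heavy chain, which marks the atria of the embryo and, in the mouse, the ventricles after birth, whereas Myh7 encodes the slower beta heavy chain of the embryonic ventricle and of slow skeletal muscle. Myl7 (MLC2a) and Myl2 (MLC2v) are the atrial and ventricular regulatory light chains, and Myl4 (ALC) and Myl3 (VLC1) are the atrial and ventricular essential light chains. The atrial light chains are made throughout the early heart tube before they become restricted to the atria, and Myl4 is also made in embryonic skeletal muscle, as Myl3 is in slow skeletal muscle.

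The start regions of 3 members are printed because they hold the motifs of cardiac promoters that were found close to an annotated start: a CArG box (the serum response factor motif), GATAA (the core of a GATA factor motif) or TATAAA. RefSeq windows of assembly GRCm38.p6 were matched by symbol for all 6 members (8 windows), each 300 bases long from 250 bases before the start. The sequences are given 5′ to 3′ on the gene's strand for 270 bases, the last 20 of them from the start on, and capitals mark those motifs on either strand. Myl7 is at chr11:5898763-5899032 on the minus strand, Myl3 is at chr9:110763428-110763697 on the plus strand and Myh6 is at chr14:54966588-54966857 on the minus strand.
Myl7: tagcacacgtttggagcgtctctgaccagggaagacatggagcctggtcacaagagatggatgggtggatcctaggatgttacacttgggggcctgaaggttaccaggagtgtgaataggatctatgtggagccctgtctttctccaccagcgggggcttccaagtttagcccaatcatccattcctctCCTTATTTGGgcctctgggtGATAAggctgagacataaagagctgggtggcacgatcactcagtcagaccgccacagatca
Myl3: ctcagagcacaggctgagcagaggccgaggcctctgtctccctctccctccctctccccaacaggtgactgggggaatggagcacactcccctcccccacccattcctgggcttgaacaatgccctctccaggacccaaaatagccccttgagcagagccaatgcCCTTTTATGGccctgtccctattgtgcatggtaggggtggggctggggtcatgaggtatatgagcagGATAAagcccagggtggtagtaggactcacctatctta
Myh6: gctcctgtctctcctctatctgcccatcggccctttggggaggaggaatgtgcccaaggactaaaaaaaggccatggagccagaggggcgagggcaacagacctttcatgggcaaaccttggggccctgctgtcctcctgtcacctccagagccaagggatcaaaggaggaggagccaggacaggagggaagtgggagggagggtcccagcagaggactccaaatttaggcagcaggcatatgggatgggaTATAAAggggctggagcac

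Myl7 and Myl3, the light chains named for opposite chambers, each held a CArG box upstream of a GATAA. In Myl7 the CArG box spanned bases -61 to -52 and GATAA bases -41 to -37 from the start, and in Myl3 they spanned -85 to -76 and -18 to -14. A CArG box was in 1.63% of all 32851 windows of this length and GATAA in 25.4%, both strands read. In Myh6 the TATAAA lay just past the annotated start, at bases 2 to 7, and 13.6% of all windows held that motif. One of the windows of Myl2 held GATAA and the other TATAAA. Neither the windows of Myh7 nor that of Myl4 held any of these 3 motifs, and no member's window held the MEF2 motif, which was in 3.19% of all windows. A match of letters is a description of the sequence only.

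The deposited values were log2 signals from 3.0 to 15.67, with array medians between 5.91 and 6.1. A level is given below on this log2 scale, on which a difference of 1 is a 2-fold difference in signal, and levels of different probe sets were not set against each other. As a guide to dim signal, the 40th percentile of all values was 5.37, called the dim level here. Differences between groups come from 1 limma fit over all 27 arrays and all 18193 genes, are given ± SE with n = 3 arrays per group unless an array is left out, and were called where the adjusted p was under 0.05 and the difference at least 2-fold. Comparisons with the same day of a line share its 3 arrays. The fit took 1 spread per gene over all groups, so that scatter in some groups widened the intervals of the others. The cultures were mixtures, so that fewer cells of a type and less RNA per cell cannot be told apart.

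Myh6, the alpha heavy chain, had its highest and most scattered signal in R1 at day 11 but was also read in undifferentiated cells. In R1 it read 7.75, 6.39 and 5.99 in the 3 day 0 replicates, 5.30, 5.31 and 4.94 at day 5, and 8.40, 9.11 and 4.68 at day 11. Day 5 was below day 0 in all 3 arrays, and the day 11 arrays lay above and below both other days because replicate 3 stood at the bottom. In 3F it read 6.96, 7.43 and 6.92 at day 0, 5.31, 4.79 and 4.74 at day 5, and 6.49, 7.08 and 4.76 at day 11. In 4F it read 6.10, 6.08 and 5.87 at day 0, 6.15, 6.36 and 5.32 at day 5, and 4.02, 4.57 and 4.35 at day 11. All 3 day 11 arrays of 4F were below every other array for this gene.

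Myh6 was lower at day 5 than at day 0 in 3F, by -2.15 ± 0.72 (adjusted p = 0.027), whereas the change was -1.53 (adjusted p = 0.11) in R1 and -0.07 in 4F. The 3F call was lost without any of the 3 day 0 arrays or without day 5 replicate 2 or 3 (-1.99 to -2.25, adjusted p 0.0523 to 0.0864). Markers of fibroblasts and feeder cells moved the same way in that interval, from a mean log2 signal of 10.37 to 11.26 in the 3 arrays of 3F at day 0 to 6.24 to 7.12 at day 5. They went from 8.97 to 9.71 down to 5.89 to 7.92 in R1, where the day 5 arrays of Myh6 were below those of day 0 without a call. They went from 9.27 to 10.24 down to 5.99 to 6.18 in 4F, where Myh6 was not called and its days overlapped. Their part in the Myh6 signal of undifferentiated cultures was not tested. From day 5 to day 11 Myh6 rose in R1 by 2.22 (adjusted p = 0.0247), was 1.16 apart in 3F (adjusted p = 0.221) and -1.63 apart in 4F (adjusted p = 0.0813, or 0.0369 with the replicate number as a block). The R1 value was 3.58 without replicate 3 of day 11 (adjusted p = 1.7e-05) and 1.36 without replicate 2, and leaving out any other array of the comparison also ended the call (adjusted p 0.0515 to 0.201).

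Myh7, the beta heavy chain, stayed near the dim level at day 0 and day 5 in all 3 lines and was higher at day 11 in R1 and 3F. R1 read 5.72, 6.04 and 5.82 at day 0, 5.43, 6.21 and 5.94 at day 5, and 8.09, 8.23 and 5.90 at day 11. 3F read 5.53, 5.54 and 5.5 at day 0, 5.63, 5.41 and 5.17 at day 5, and 7.98, 8.53 and 7.06 at day 11. In 3F all 3 day 11 arrays were above every earlier array, whereas in R1 replicate 3 stayed among the day 0 values. 4F read 5.48, 5.58 and 5.66 at day 0, 5.48, 5.6 and 5.59 at day 5, and 5.02, 5.14 and 5.20 at day 11, with day 11 below the other days in every array.

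From day 0 to day 11 Myh7 rose by 2.34 ± 0.40 in 3F, which is 5.05-fold (adjusted p = 3.69e-05), and by 1.55 ± 0.40 in R1 (adjusted p = 0.00255). In 4F the difference was -0.46, with a 95% interval from -1.28 to 0.37 (adjusted p = 0.39). The rise fell between day 5 and day 11, at 2.46 ± 0.40 in 3F (adjusted p = 3.31e-05) and 1.55 in R1 (adjusted p = 0.00484). The probe set 1448554_s_at, which carries both heavy chain genes, read 7.48, 6.68 and 6.19 in R1 at day 0 and 7.55, 8.10 and 5.71 at day 11, so that replicate 3 was again the lowest. Myh6 and Myh7 lie next to each other on chromosome 14, and this probe set cannot divide its signal between them. The second Myh6 probe set stayed between 3.28 and 3.70 on all arrays and was above the dim level on 0 of them.

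**Figure D1:**
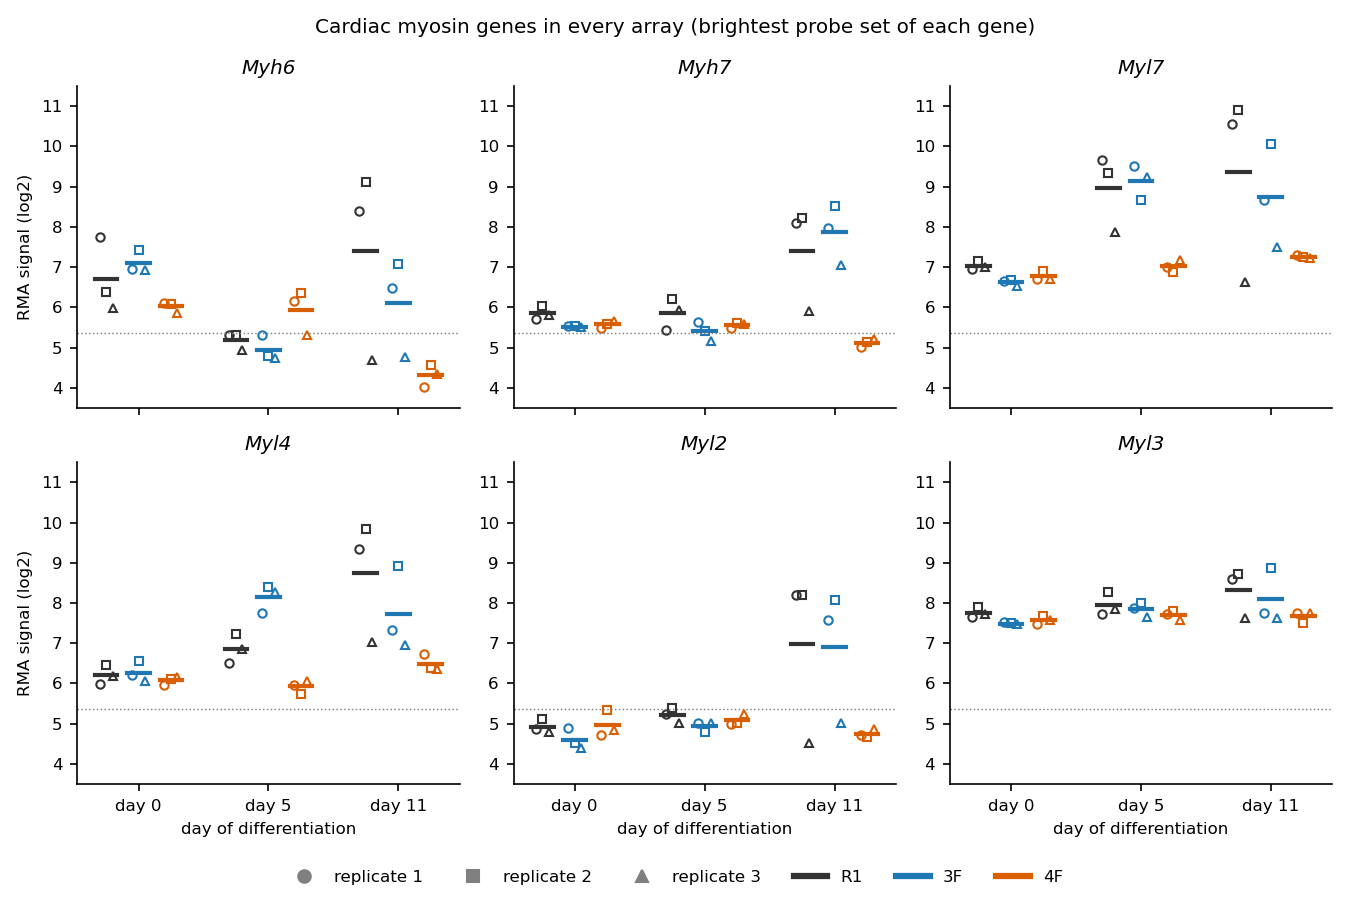
Log2 signal of the representative probe set of each of the 6 genes (vertical axes) against day of differentiation for R1 (black), 3F (blue) and 4F (orange), with a symbol per replicate, a bar at the group mean of 3 arrays and a dotted line at the dim level. Myl7 is raised at day 5 in R1 and 3F, Myl2 and Myh7 are raised only at day 11, and the day 11 arrays of 4F lie slightly above its day 0 arrays for Myl4 and Myl7, slightly below them for Myh7 and further below for Myh6, none of these being called.

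Myl7, the atrial regulatory light chain, was high by day 5 in R1 and 3F and not in 4F. R1 read 6.94, 7.16 and 6.99 at day 0, 9.66, 9.35 and 7.88 at day 5, and 10.55, 10.90 and 6.64 at day 11. 3F read 6.65, 6.67 and 6.54 at day 0, 9.50, 8.67 and 9.25 at day 5, and 8.66, 10.06 and 7.50 at day 11. In both lines every day 5 array was above every day 0 array, as for 20.8% of all genes in R1 and 26.1% in 3F. At day 11 replicate 3 was the lowest in both lines, in R1 below its own day 0 arrays. 4F read 6.70, 6.90 and 6.70 at day 0, 7.0, 6.88 and 7.17 at day 5, and 7.30, 7.24 and 7.23 at day 11. The 4F arrays at day 11 were above its earlier arrays, by a fraction of the shift seen in the other lines.

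Myl7 rose from day 0 to day 5 by 2.52 ± 0.72 in 3F, which is 5.73-fold (adjusted p = 0.00936), a call that held without any single array. In R1 the rise was 3.82-fold (adjusted p = 0.0384). The R1 call was lost without any of the 3 day 0 arrays or without day 5 replicate 1 or 2 (1.58 to 2.0 on the log2 scale, adjusted p 0.0733 to 0.146). From day 5 to day 11 no further change was called, at 0.40 in R1 (adjusted p = 0.762) and -0.40 in 3F, with an interval from -1.88 to 1.09 (adjusted p = 0.701). Without replicate 3 of day 11 the R1 value was 1.76 (adjusted p = 0.0102). Over day 0 the day 11 level was higher by 2.33 ± 0.72 in R1 (adjusted p = 0.00985) and 2.12 ± 0.72 in 3F (adjusted p = 0.0179). The R1 value was 3.69 without its replicate 3 (adjusted p = 2.46e-06) and lost its call without replicate 1 (1.74, adjusted p = 0.0752) or 2 (1.56, adjusted p = 0.0941), and the 3F value lost it without replicate 2 (1.46, adjusted p = 0.113). In 4F the difference was 0.49, with a 95% interval from -0.99 to 1.97 (adjusted p = 0.627).

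Myl2, the ventricular regulatory light chain, was below the dim level on all but 5 arrays. R1 read 4.86, 5.12 and 4.80 at day 0, 5.24, 5.38 and 5.01 at day 5, and 8.21, 8.21 and 4.52 at day 11. 3F read 4.89, 4.53 and 4.39 at day 0, 5.01, 4.80 and 5.01 at day 5, and 7.58, 8.08 and 5.03 at day 11. Of the 5 arrays above the dim level, 4 were replicates 1 and 2 of R1 and 3F at day 11, and the other, R1 day 5 replicate 2, lay at 5.38. In 4F all 9 arrays lay between 4.67 and 5.34. A difference from groups this dim can understate the change in RNA.

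Myl2 was called higher at day 11 than at day 0 in R1, by 2.06 ± 0.68 (adjusted p = 0.0156), and in 3F, by 2.29 ± 0.68 (adjusted p = 0.00748). The R1 value was 3.29 without its replicate 3 of day 11 (adjusted p = 1.35e-05) and 1.44 without replicate 1 or without replicate 2 (adjusted p = 0.115 and 0.117), and the 3F value was 1.70 without replicate 2 (adjusted p = 0.0547). Against day 5 it rose by 1.95 in 3F (adjusted p = 0.026), a call kept without replicate 3 of day 11 (2.89, adjusted p = 0.000822) and lost without any of the other 5 arrays (adjusted p 0.0547 to 0.138). In R1 the difference from day 5 was 1.77 (adjusted p = 0.0559), and 3.00 without replicate 3 (adjusted p = 0.000107). In 4F the difference between day 11 and day 0 was -0.22, with an interval from -1.62 to 1.18 (adjusted p = 0.83).

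Myl4, the atrial essential light chain, was called higher than at day 0 by day 5 in 3F and at day 11 in both R1 and 3F. R1 read 5.98, 6.45 and 6.19 at day 0, 6.51, 7.22 and 6.85 at day 5, and 9.34, 9.83 and 7.04 at day 11. 3F read 6.22, 6.55 and 6.05 at day 0, 7.74, 8.39 and 8.28 at day 5, and 7.32, 8.91 and 6.95 at day 11. The day 5 arrays of 3F were all above those of R1, while at day 11 the 2 lines overlapped. 4F read 5.96, 6.10 and 6.17 at day 0, 5.97, 5.74 and 6.07 at day 5, and 6.74, 6.38 and 6.35 at day 11.

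The rise of Myl4 to day 5 was 1.87 ± 0.48 in 3F (adjusted p = 0.00466), and from day 5 to day 11 the 3F difference was -0.41, with an interval from -1.41 to 0.59 (adjusted p = 0.534). In R1 the day 5 arrays were above those of day 0, by 0.65 ± 0.48 (adjusted p = 0.334). The R1 rise from day 5 to day 11 was 1.88 (adjusted p = 0.00493, or 1.33 and 0.0512 without day 11 replicate 2), and that over day 0 was 2.53 ± 0.48 (adjusted p = 0.000141). Over day 0 the 3F difference at day 11 was 1.45 ± 0.48 (adjusted p = 0.0161), and it was not called without day 11 replicate 2 (0.86, adjusted p = 0.135) or without day 0 replicate 3 (1.34, adjusted p = 0.0541). The difference between 3F and R1 at day 5 was 1.28, with an interval from 0.28 to 2.28 (adjusted p = 0.383), and was not called. A difference in timing between the lines was not tested. A second Myl4 probe set stayed between 6.10 and 7.23 on all arrays, and its day 11 difference from day 0 was 0.07 in R1 (adjusted p = 0.8) and 0.44 in 3F (adjusted p = 0.0331, under 2-fold), from a limma fit over 45037 probe sets.

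Myl3, the ventricular essential light chain, gave a different answer by probe set. Its brightest one, which stands for the gene in the counts below, ranged from 7.47 to 8.88 over all arrays and was called in no comparison, with differences from day 0 to day 11 of 0.56 in R1 (adjusted p = 0.0807), 0.59 in 3F (adjusted p = 0.0614) and 0.10 in 4F. A dimmer one, 1427768_s_at, read 5.16, 5.33 and 5.65 in R1 at day 0, 6.83, 8.29 and 7.17 at day 5, and 9.43, 9.45 and 6.39 at day 11. In R1 its day 5 and day 11 arrays were all above day 0, replicate 3 of day 11 being the lowest of that day. In 3F it read 5.63, 5.34 and 5.39 at day 0, 6.81, 7.19 and 6.32 at day 5, and 7.42, 9.77 and 6.20 at day 11. In 4F it read 5.16, 4.71 and 4.76 at day 0 and 5.73, 6.41 and 6.79 at day 11.

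In the fit over probe sets, 1427768_s_at rose from day 0 to day 5 in R1 by 2.05 ± 0.69 (adjusted p = 0.0304) and to day 11 by 3.05 ± 0.69 in R1, 8.26-fold (adjusted p = 0.00114), and 2.35 in 3F (adjusted p = 0.00924). In 4F the day 11 difference was 1.44 (adjusted p = 0.101), the largest positive change of any member's probe set in that line. It was lower in 4F than in R1 at day 5 by -2.30 (adjusted p = 0.0434) and at day 11 by -2.11 (adjusted p = 0.027). The other dimmer Myl3 probe set, 1427769_x_at, moved by 1.48 in R1 (adjusted p = 0.00255), 1.25 in 3F (adjusted p = 0.00886) and 0.94 in 4F (adjusted p = 0.042, under 2-fold). The suffixes s and x mark probe sets with probes that can match related transcripts, and which transcript each one reads was not tested.

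**Figure D2:**
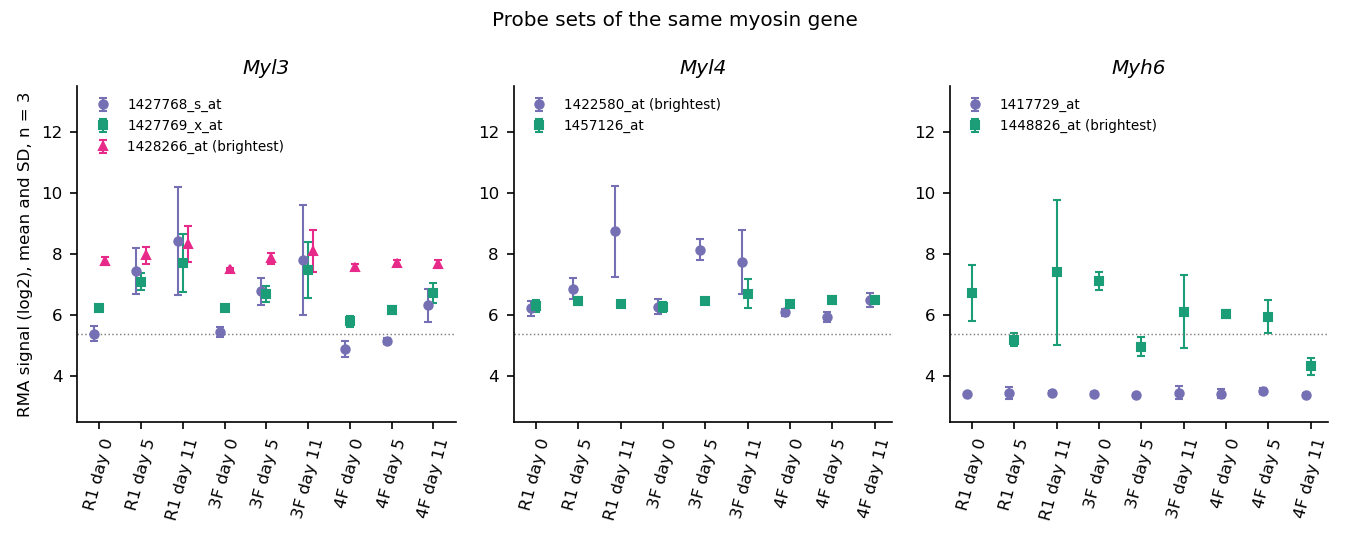
Group mean log2 signal ± SD (n = 3) of each probe set of Myl3 (3 sets), Myl4 (2) and Myh6 (2) across the 9 groups, with the dim level dotted. The probe sets of a gene differ in how far they move: 1427768_s_at of Myl3 spans 3.54 between its lowest and highest group mean, against 1.90 for 1427769_x_at and 0.83 for the brightest Myl3 set, and the second sets of Myl4 and Myh6 stay nearly level.

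Counted over the set, the calls from day 0 to day 5 were 1 of 6 members higher in R1 (Myl7), 2 higher (Myl4, Myl7) and 1 lower (Myh6) in 3F, and 0 in 4F, where Myl7 differed by 0.25, with an interval from -1.23 to 1.73 (adjusted p = 0.861). Of all genes, 14.7% were called in R1 (6.62% higher), 12.4% in 3F (5.04% higher, 7.40% lower) and 7.07% in 4F. From day 0 to day 11, 4 of 6 were higher in R1 and the same 4, Myh7, Myl2, Myl4 and Myl7, in 3F, against 11.4% and 7.55% of all genes called higher and 23.6% called in either direction in each line. With only the compared arrays in the fit, 3 of the R1 calls were lost: Myh7 (adjusted p = 0.064), Myl2 (adjusted p = 0.113) and Myl7 (adjusted p = 0.106). In 4F 0 of 6 were called, against 20.8% of all genes, and the lowest adjusted p was 0.0624, for Myh6 at -1.70. That change of Myh6 was called with only the compared arrays (adjusted p = 0.000143), with array weights (-1.48, adjusted p = 0.00307) and with the replicate block (adjusted p = 0.0262). From day 5 to day 11, 3 of 6 rose in R1 (Myh6, Myh7, Myl4), against 7.10% of all genes called higher, 2 of 6 in 3F (Myh7, Myl2), against 6.16%, and 0 of 6 in 4F, where 15.8% of all genes were called. The genes called by day 5 in both R1 and 3F thus came down to Myl7, and those called only at day 11 in both lines were Myh7 and Myl2.

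**Figure D3:**
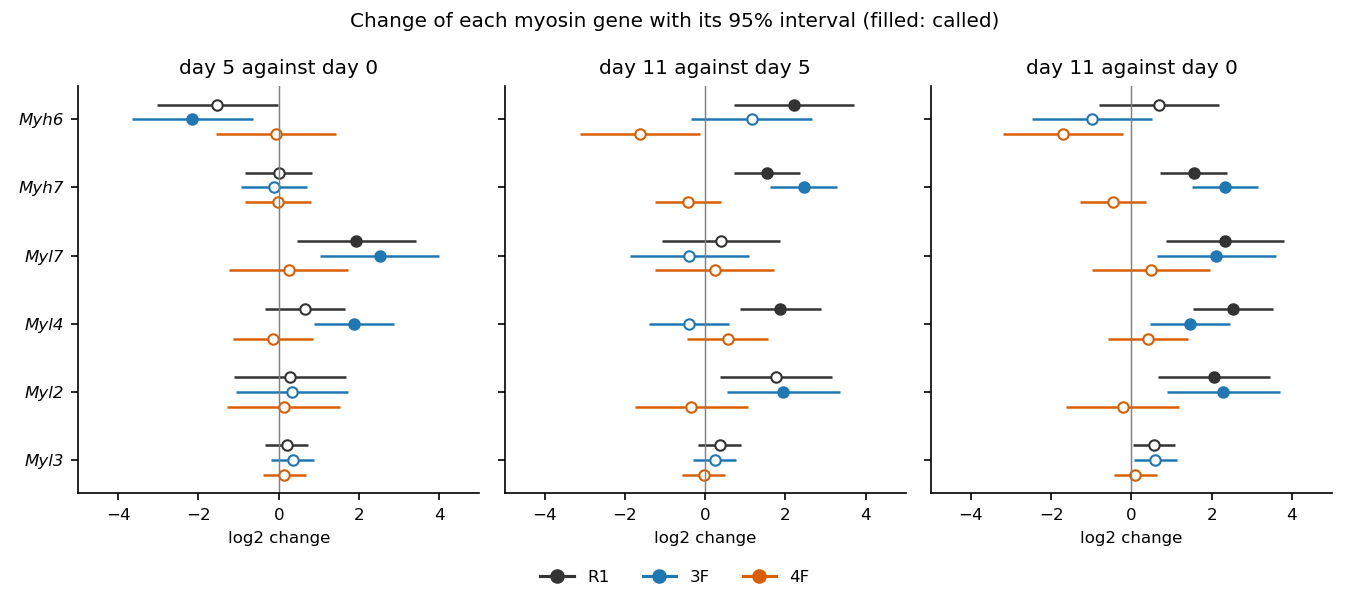
Log2 change of each member with its 95% interval in R1, 3F and 4F, for day 5 against day 0, day 11 against day 5 and day 11 against day 0, with filled points for called changes. Myl7 and Myl4 of 3F lie to the right of 0 from day 0 to day 5 and have intervals across 0 from day 5 to day 11, Myh7 does the reverse, and no point of 4F is filled.

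A measure of RNA quality moved with the day beside these 8 calls between day 0 and day 11. This index was the difference between probe sets at the 3′ and 5′ ends of the control genes beta-actin and Gapdh, larger in more degraded RNA. It was 1.45 ± 0.26 in R1 at day 0 and 1.94 ± 0.20 at day 11 (mean ± SD, n = 3). It was 1.09 ± 0.07 and 1.55 ± 0.23 in 3F, and 1.31 ± 0.11 and 2.69 ± 0.23 in 4F. With this index as a covariate 2 of the 8 calls remained, Myl4 in R1 and Myh7 in 3F. In R1 the values became 1.02 for Myh7 (adjusted p = 0.0699), 1.03 for Myl2 (adjusted p = 0.282) and 0.97 for Myl7 (adjusted p = 0.302), and in 3F 1.35 for Myl2 (adjusted p = 0.144), 0.78 for Myl4 (adjusted p = 0.238) and 0.86 for Myl7 (adjusted p = 0.351). The index moved with the day in every line, so that its part and that of the day cannot be told apart.

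Before differentiation no difference between lines was called: 0 of 6 members passed at day 0 in any of the 3 pairs of lines, against 3.09% of all genes in 3F against R1, 1.12% in 4F against R1 and 1.98% in 4F against 3F. At day 5 Myl4 and Myl7 were lower in 4F than in 3F, by -2.21 (adjusted p = 0.00231) and -2.12 (adjusted p = 0.0435), against 4.57% of all genes called lower. The Myl7 call was lost without any of the 6 arrays (adjusted p 0.0651 to 0.129). The arrays of the 2 lines did not overlap, as those of 21.9% of all genes did not with 4F the lower. Against R1 0 of 6 were called in 4F, with Myl7 at -1.95 (adjusted p = 0.0801), where 5.45% of all genes were called. Between 3F and R1 0 of 6 were called, against 0.374% of all genes.

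At day 11, 5 of 6 members were lower in 4F than in R1, against 5.92% of all genes called lower. Myh6 differed by -3.09 ± 0.72 on the log2 scale (adjusted p = 0.00319), Myh7 by -2.29 (adjusted p = 0.00023) and Myl4 by -2.25 (adjusted p = 0.00154), and these 3 did not overlap between the lines, as 26.4% of all genes did not with 4F the lower. Without R1 replicate 3 they were -4.45, -3.04 and -3.09 (adjusted p = 1.96e-06, 8.64e-08 and 4.07e-06). Replicate 3 was the lowest day 11 array of R1 and of 3F for every member. Leaving it out therefore raises the mean of its line and widens the differences from 4F given here and below. With only the compared arrays Myh6 and Myl4 were not called (adjusted p = 0.0784 and 0.0532). Myh6, Myh7 and Myl2 were below the dim level on all 3 arrays of 4F, so that these differences can understate those in RNA. Myl2 at -2.23 (adjusted p = 0.0183) and Myl7 at -2.10 (adjusted p = 0.0343) overlapped through replicate 3 of R1. The Myl2 call was lost without R1 replicate 1 (-1.62, adjusted p = 0.121) or 2 (-1.62, adjusted p = 0.125) and without 4F replicate 1 (-2.22, adjusted p = 0.059) or 2 (-2.19, adjusted p = 0.0549). The Myl7 call was lost without R1 replicate 1 (-1.51, adjusted p = 0.186) or 2 (-1.33, adjusted p = 0.228) and without any 4F replicate (adjusted p 0.0616 to 0.0886). Without R1 replicate 3 both were -3.46, with adjusted p = 3.86e-05 for Myl2 and 2.94e-05 for Myl7. With only the compared arrays neither was called (adjusted p = 0.134 and 0.192).

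Against 3F, 2 of 6 members were lower in 4F at day 11, against 4.91% of all genes. Myh7 differed by -2.74 on the log2 scale (adjusted p = 3.02e-05) and Myl2 differed by -2.15 (adjusted p = 0.0201). The Myl2 call was lost without 3F replicate 1 (-1.81, adjusted p = 0.0879) or 2 (-1.55, adjusted p = 0.0953) and without 4F replicate 1 (-2.13, adjusted p = 0.0557) or 2 (-2.11, adjusted p = 0.0568). Myh6 at -1.80 (adjusted p = 0.0633), Myl4 at -1.24 (adjusted p = 0.0551) and Myl7 at -1.48 (adjusted p = 0.119) were not called. Without 3F replicate 3 these 3 were -2.47 (adjusted p = 0.0171), -1.63 (adjusted p = 0.0204) and -2.11 (adjusted p = 0.0383). Markers of other cell types moved with the line as well: at day 11 the mean of 5 pluripotency markers was 9.19 to 10.04 in 4F, 6.60 to 7.82 in R1 and 6.43 to 7.07 in 3F, and that of 5 endothelial markers was 5.66 to 6.46, 7.52 to 7.86 and 7.89 to 8.60. Their part in the myosin differences was not tested. The 3′ to 5′ index also separated 4F at day 11, at 2.44 to 2.89, from R1 (1.75 to 2.16) and 3F (1.31 to 1.76) without overlap. With the index as covariate the 5 members called against R1 stayed called, at -3.10 to -4.19, and so did Myh7 (-3.98) and Myl2 (-4.53) against 3F, while Myl3 against R1 (-1.22) and Myl4 (-2.93) and Myl7 (-4.67) against 3F became called. Since the index did not overlap between 4F and the other lines, this fit cannot tell its part from that of the line.

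The test of the change itself, from day 0 to day 11 in 4F minus that in R1, called 2 of 6 members lower, against 7.03% of all genes: Myh7 at -2.0 ± 0.56 (adjusted p = 0.0197) and Myl4 at -2.12 ± 0.68 (adjusted p = 0.038). The Myh7 call was lost without R1 day 11 replicate 1 (-1.66, adjusted p = 0.0579) or 2 (-1.59, adjusted p = 0.0641) and without 4F day 11 replicate 1 (-1.95, adjusted p = 0.0522). That of Myl4 was kept without R1 day 11 replicate 3 and lost without any of the other 11 arrays (adjusted p 0.0528 to 0.122). Between 3F and R1 the changes of 0 of 6 members differed, against 1.50% of all genes. Against 3F the change of Myh7 was lower in 4F by -2.79 ± 0.56 (adjusted p = 0.003), the 1 member called, against 3.01% of all genes. Without 3F day 11 replicate 3, Myl2 was called as well (-3.45, adjusted p = 0.0102). Without R1 day 11 replicate 3 the changes in 4F against R1 were -3.75 for Myh6, -3.50 for Myl2 and -3.20 for Myl7 (adjusted p = 0.000897, 0.00144 and 0.00256).

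At day 11 replicate 3 of R1 and of 3F was the lowest of its group for every member, while over all genes the 3F array that stood apart was replicate 1. The SD of its differences from replicates 2 and 3 was 0.673 and 0.698, against 0.457 between those 2, and its array weight of 0.0947 was the lowest of the 27. For Myl4, Myl3 and Myl7 in 3F, replicate 2 was farther from the other 2 than they were from each other. In R1 replicate 3 was lower than the mean of the other 2 by 2-fold or more for 6 of 6 members, where 1.87% of all genes were: the difference was -4.08 for Myh6, -4.08 for Myl7, -3.69 for Myl2, -2.54 for Myl4, -2.26 for Myh7 and -1.03 for Myl3. In 3F it was lower for 5 of 6, against 1.31% of all genes, at -2.80 for Myl2, -2.03 for Myh6, -1.87 for Myl7, -1.20 for Myh7, -1.17 for Myl4 and -0.68 for Myl3. In 4F replicate 3 was lower for 0 of 6, against 0.81% of all genes. This was seen in the data first and is given without a test.

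Cardiac troponin T did not follow the myosins in those arrays. Tnnt2, which encodes it, read 10.27, 10.72 and 10.62 in R1 at day 11 and 10.00, 10.58 and 10.84 in 3F, so that replicate 3 was as high as the others. Actc1, cardiac alpha-actin, read 12.42, 12.68 and 8.68 in R1 and 10.83, 11.08 and 9.96 in 3F, with replicate 3 the lowest in both. Of 23 genes of sarcomere partners, 5 were at least 2-fold lower in replicate 3 of R1 (Actc1 -3.87, Csrp3 -3.31, Tnni3 -1.62, Tnnc1 -1.55, Nebl -1.47) and 1 in that of 3F (Csrp3 -1.67), a gene for a protein of the Z-disc. In 4F the order was turned: Tnnt2 read 5.40, 5.81 and 8.25 and Actc1 6.42, 6.56 and 8.76, replicate 3 being the highest, while the members' median difference of that replicate from the others was 0.08. Erythroid markers (3 genes measured) were lowest in replicate 3 of every line at day 11. They read 8.09 against 12.65 and 11.86 in R1, 11.43 against 12.42 and 12.65 in 3F, and 8.66 against 10.38 and 9.91 in 4F. The 3′ to 5′ index was lowest there too. It was 1.75 against 2.16 and 1.92 in R1, 1.31 against 1.58 and 1.76 in 3F, and 2.44 against 2.89 and 2.74 in 4F. In every line the mean of the pluripotency markers was also lowest in replicate 3, and those of fibroblast and smooth muscle markers were highest. The part of differing cell composition was not tested.

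**Figure D4:**
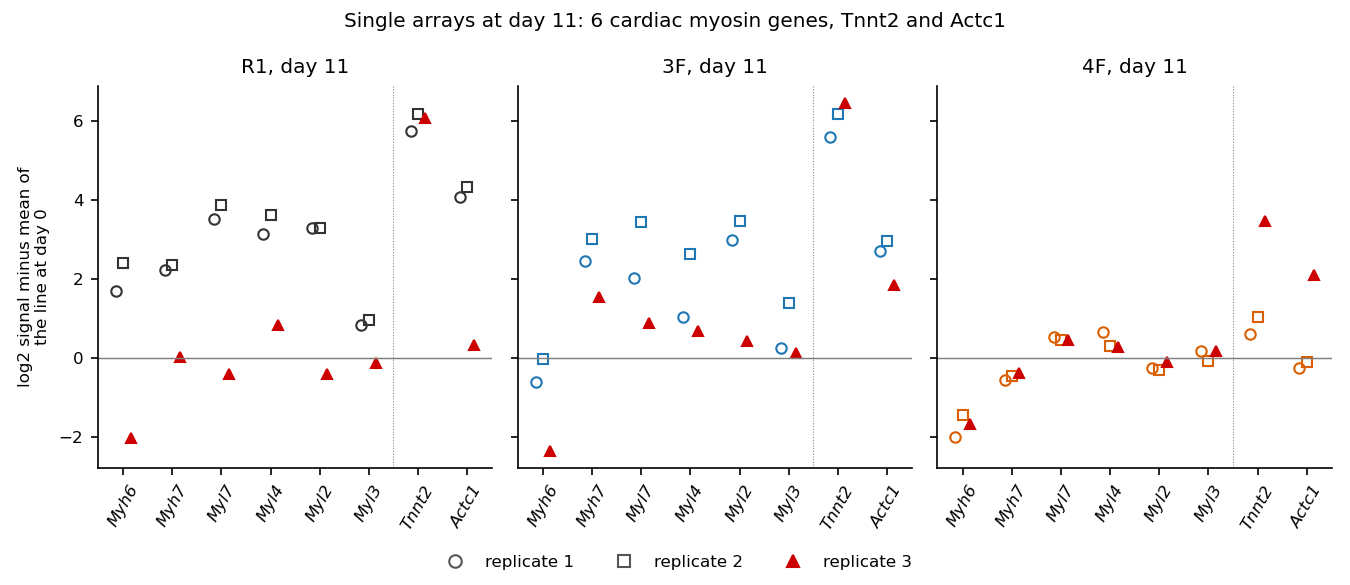
Log2 signal of each day 11 array minus the day 0 mean of its line, for the 6 members, Tnnt2 and Actc1, in R1, 3F and 4F, with replicate 3 as a red triangle. In R1 and 3F the triangle lies below replicates 1 and 2 for the members and Actc1 but not for Tnnt2, and in 4F it lies above them for Tnnt2 and Actc1.

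Whether 3F and R1 differed at day 11 depended on these arrays. With all arrays 0 of 6 members were called, against 1.02% of all genes, at -1.29 for Myh6 (adjusted p = 0.328), 0.45 for Myh7 (adjusted p = 0.547), -0.08 for Myl2 (interval -1.49 to 1.32), -1.01 for Myl4 (adjusted p = 0.255) and -0.62 for Myl7 (adjusted p = 0.653). Without R1 replicate 3 the members named for the atria were lower in 3F, Myh6 by -2.65 (adjusted p = 0.00257), Myl4 by -1.86 (adjusted p = 0.0037) and Myl7 by -1.98 (adjusted p = 0.0176). With the third arrays of both lines left out these were -1.97 (adjusted p = 0.00759), -1.47 (adjusted p = 0.0154) and -1.36 (adjusted p = 0.0448), while Myh7 was at 0.10 (adjusted p = 0.788) and Myl2 at -0.38 (adjusted p = 0.219). Myl4 was also called without 3F replicate 2 (-1.60, adjusted p = 0.0279). These arrays were left out after their values had been seen. With them left out, the changes from day 0 to day 11 were 2.05 for Myh6, 2.30 for Myh7, 3.29 for Myl2, 3.38 for Myl4 and 3.69 for Myl7 in R1, and -0.32, 2.74, 3.23, 1.84 and 2.74 in 3F.

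The balance of isoforms within an array was taken as the log2 difference of a ventricular and an atrial chain, which removes what both share. It compares groups and does not give the ratio of the 2 RNAs. At day 11 Myh7 minus Myh6 was -0.31, -0.88 and 1.22 in R1, 1.49, 1.46 and 2.30 in 3F, and 1.0, 0.57 and 0.85 in 4F. All 3F arrays were above those of R1 and of 4F, by 1.74 and 0.94 on average, although both genes were below the dim level on all 3 arrays of 4F and Myh6 also in replicate 3 of R1 and 3F. Each difference had p = 0.1 in a two-sided exact permutation test, the smallest that 3 arrays against 3 allow (adjusted p = 0.225 over 9 balances). Myl2 minus Myl7 was -2.34, -2.69 and -2.11 in R1, -1.09, -1.98 and -2.47 in 3F, and -2.59, -2.56 and -2.38 in 4F, with overlap between each pair of lines. Myl3 minus Myl4 was -0.75, -1.1 and 0.59 in R1, 0.43, -0.03 and 0.69 in 3F, and 1.02, 1.14 and 1.4 in 4F. All 4F arrays were above those of R1 and 3F, by 1.6 and 0.82 on average (exact permutation p = 0.1 each, adjusted p = 0.225). This balance rests on the brightest Myl3 probe set, and its differences turned when probe sets were averaged.

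Over the days the balance of the regulatory light chains was lowest at day 5 in R1 and 3F. These 45 comparisons between days were added after the values had been seen, and with 3 arrays a group none could go below an exact permutation p of 0.1 (adjusted p at least 0.161). In 3F Myl2 minus Myl7 was -4.48, -3.87 and -4.23 at day 5, a shift of -2.18 from day 0 and then of 2.35 to day 11. In R1 it was -4.42, -3.97 and -2.87 at day 5, with shifts of -1.65 and 1.37. Day 5 overlapped neither other day in either line, each with an exact permutation p of 0.1. In 4F the shifts were -0.13 (exact permutation p = 0.5) and -0.58 (exact permutation p = 0.1). Myl2 was near the dim level at day 0 and day 5, so that the first shift is largely that of Myl7. Myh7 minus Myl7 in both lines, and in 3F Myl2 minus Myl4 and Myl3 minus Myl4, also fell to day 5 and rose after it. In R1 Myl2 minus Myl4 shifted by -0.37 and then -0.11, and Myl3 minus Myl4 by -0.45 and then -1.51. Myh7 minus Myh6 went the other way to day 5, by 1.52 in R1 and 2.03 in 3F.

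Read across the 9 groups, the highest means of Myl7 were 9.36 in R1 at day 11, 9.14 in 3F at day 5, 8.96 in R1 at day 5 and 8.74 in 3F at day 11, each overlapping the next. The other 5 groups had means from 7.26 in 4F at day 11 to 6.62 in 3F at day 0. R1 at day 11 overlapped even the lowest group, since its replicate 3 read 6.64. For Myh6 the order, with ± as the SD, ran from R1 at day 11 (7.4 ± 2.38) over 3F at day 0 (7.1 ± 0.29) and R1 at day 0 (6.71 ± 0.92) to 3F at day 5 (4.95) and 4F at day 11 (4.31). For Myh7, Myl2, Myl3 and Myl4 every group overlapped its neighbour in the order. The highest means were 7.86 ± 0.75 in 3F at day 11 for Myh7, and 6.98 ± 2.13 and 8.74 ± 1.49 in R1 at day 11 for Myl2 and Myl4 (SD, n = 3 each).

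The genes with the most similar pattern were sought among 8770 genes by the root mean square difference of the 9 group means, each gene centred on its mean. Myl2 was closest to Kcnj8 (0.16), a subunit of an ATP-sensitive potassium channel, then Tmem204 (0.17) and Rbfox1 (0.2). Myh7 was closest to Angptl7 (0.19), Pamr1 and Ntsr1 (0.22 each). Myl7 was closest to C1qtnf12 (0.21), Gpc3 (0.31), a cell surface proteoglycan, and Gprc5c (0.32). Myl4 was closest to Spats2l (0.34), Popdc3 (0.35) and Itgb8 (0.36), and Myh6 to Nrros (0.38), Gstm2 (0.42) and Ctsw (0.45). None was sought for Myl3, whose brightest probe set spanned less than 1 between group means.

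The genes of the partners of myosin in the sarcomere were read from a list of 23. Of these, 8 were higher and 1 lower at day 11 than at day 0 in R1, 7 and 1 in 3F, and 3 and 2 in 4F. Of all genes, 11.4%, 7.55% and 6.72% were called higher and 12.2%, 16.0% and 14.1% lower. Tnnt2 rose by 6.01, 6.08 and 1.71 in R1, 3F and 4F, and Tnni1, the slow troponin I of the embryonic heart, by 4.76, 5.82 and 2.62. Tnnc1, cardiac troponin C, was 3.78 and 2.59 higher in R1 and 3F and differed by 0.60 in 4F. At day 11, 10 of 23 were lower and 0 higher in 4F than in R1, with a median of -0.87 over the list against -0.10 over all genes, and 8 of 23 were lower than in 3F, with medians of -0.54 and -0.12. The change itself was lower in 4F than in R1 for 7 of 23 and than in 3F for 4 of 23, and higher for 0. Of all genes, 5.92% were called lower than in R1 and 4.91% lower than in 3F at day 11, and 7.03% and 3.01% in the change. Of 9 markers of skeletal muscle, the regulators Myog, Myf5, Myf6 and Pax7 were above the dim level on 0 arrays and Myod1 on 3. Ckm and Actn3 were above it on 27 arrays, Tnni2 on 22 and Tnnt3 on 18. Tnnt3, fast skeletal troponin T, went from a mean of 5.34 at day 0 to 7.31 at day 5 in R1 and from 5.02 to 8.10 in 3F, and its part in the results on muscle genes was not tested.

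Of 12 cardiac transcription factors, 9 were higher at day 11 than at day 0 in R1, 6 in 3F and 9 in 4F, with 0 lower. Of all genes, 11.4%, 7.55% and 6.72% were called higher there. Tbx20 differed by 5.82, 4.51 and 4.76 and Hand2 by 6.13, 5.75 and 4.68 in R1, 3F and 4F, both factors of heart formation. At day 5 the calls were 7, 6 and 1 of 12, against 6.62%, 5.04% and 2.25% of all genes called higher: Tbx20 was 5.35 and 4.50 higher than at day 0 in R1 and 3F and differed by 0.96 in 4F (adjusted p = 0.334), and Hand2 by 4.49, 3.89 and 0.23. From day 5 to day 11 Tbx20 rose by 3.80 and Hand2 by 4.45 in 4F. At day 11, 3 of 12 were lower in 4F than in R1, against 5.92% of all genes. The change itself was lower for 2 of 12, against 7.03%. Against 3F, 1 was higher and 2 were lower at day 11, where 5.12% and 4.91% of all genes were. The change was higher for 2 and lower for 2, against 3.41% and 3.01% of all genes. Nkx2-5, an early cardiac factor, was called in no comparison, with group means from 6.73 to 7.40. Ryr2, the calcium release channel of heart muscle, had means of 5.45, 6.23 and 5.35 in R1, 3F and 4F at day 11, near the dim level. A list of 14 genes tied to the atria or ventricles held regulators and also chamber markers such as Nppa and Sln. Of these genes, 7, 5 and 6 were higher at day 11 than at day 0 in R1, 3F and 4F, and 0 were lower. Nr2f2 (COUP-TFII, a factor of atrial identity) was among the higher ones, by 2.68, 1.75 and 1.72.

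Mylpf, the fast skeletal regulatory light chain, fell in all 3 lines. A list of 12 measured genes held other striated myosins and the myosin-binding proteins Mybpc1, Mybpc2, Mybph and Mybphl. Of these, 0 were higher and 1, Mylpf, was lower at day 11 than at day 0 in every line. Mylpf differed by -4.99, -3.87 and -2.07 in R1, 3F and 4F. Of all genes, 12.2%, 16.0% and 14.1% were called lower there. Mylpf had fallen at day 5 already, by -4.33, -3.55 and -2.73. Another list held 10 genes of smooth and non-muscle myosin, with the kinase gene Mylk counted among them. In it Myl9, the smooth muscle regulatory light chain, changed by -2.83, -3.54 and -3.63 to day 5 and by 3.56, 2.68 and 1.82 from day 5 to day 11. The mean of the markers of fibroblasts and feeder cells took the same course. Over the 27 arrays it was 8.97 to 11.26 at day 0, 5.89 to 7.92 at day 5 and 9.44 to 12.26 at day 11. Of these markers Thy1 fell on from day 5 to day 11 in every line, and S100a4 stayed below its day 0 means. The part of these cells was not tested.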

How the data were processed

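RNA was extracted with a column kit and labelled cRNA was hybridised to Affymetrix arrays, per the labels' protocols. The deposited values are log2 signals per probe set made by the authors with RMA, per the submitters' processing notes, whose version is not given in the sources used here; RMA forces arrays to one distribution, so that a shift of all RNA is not seen. Of 45101 probe sets, 64 controls were left out, 34945 had 1 gene symbol, 932 several and 9160 none. A gene took its brightest probe set, which can be one that moves little. The number of arrays limits the precision.

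All 27 arrays entered 1 limma fit (limma 3.58.1, R 4.3.3; lmFit and eBayes) with 1 mean per group, 21 comparisons and Benjamini-Hochberg adjustment over 18193 genes. It was tested on simulated data. P-values measure the spread between replicates, taken as 1 estimate per gene over all 9 groups. The scatter of R1 and 3F at day 11 thus entered the intervals and p-values of the other groups. For Myl7 the SD was 2.37 and 1.29 in these 2 groups, against 0.12 and 0.04 in 4F at day 0 and day 11. The members, lists and tests were chosen with earlier results of these data known; beyond the members, genes named from a list were among its called ones of largest change, with Tnnt2 and Actc1 always, and the nearest 3 per member. No batch is given in the sources used here. Arrays with the same replicate number deviated together (all 3 correlations over 0.1) in 3 of 18 comparisons, and the labels state no pairing. The correlations were 0.12, 0.49 and 0.39 for replicates 1, 2 and 3 in 3F against R1 at day 11. In 4F against R1 at day 0 they were 0.48, 0.25 and 0.33. In 4F at day 11 against day 5 they were 0.13, 0.10 and 0.15. Alternatives covered probe set choice, scaling, filters, weights, covariates, the replicate block and each array left out.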

Additional observations from a re-analysis of the deposited data

Results flagged for a closer look

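In the test of the difference between lines in their change from day 0 to day 11, Myh7 changed by -2.0 ± 0.56 on the log2 scale in 4F against R1 (limma, adjusted p = 0.0197, n = 3 arrays a group). Myl4 changed by -2.12 ± 0.68 in 4F against R1 (limma, adjusted p = 0.038). Myh7 changed by -2.79 ± 0.56 in 4F against 3F (limma, adjusted p = 0.003).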

How the results depend on the processing

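Of 126 comparisons of a member, 29 were called, 13 stayed called without any 1 array and 9 under every alternative run, and 30 that were not called became so under some alternative. Calls over the members in both directions were 4 for day 5 against day 0 (2 when tested against a 1.2-fold change), 8 for day 11 against day 0 (2 with the RNA index as covariate) and 5 for day 11 against day 5. The last became 2 with only the compared arrays in the fit, 3 with the RNA index, and 9 with replicate 3 of all groups, or of R1 and 3F at day 11, left out. Pairs of lines at day 0 gave 0 calls (1 with only the compared arrays, with or without the replicate block). Pairs at day 5 gave 2: 1 after quantile scaling, with all probe sets or against 1.2-fold, 4 with only the compared arrays, with or without the block, 5 with array weights, and 4 with the arrays of replicate 3 left out in all groups or in R1 and 3F at day 11. Pairs at day 11 gave 7: 2 with only the compared arrays and 13 without replicate 3 in either of these ways. The differences in change gave 3: 1 with only the compared arrays, with or without the block, 7 with array weights, 5 with the RNA index, 8 with replicate 3 of all groups and 11 with that of R1 and 3F at day 11 left out. Leaving out 1 array at a time gave 3 to 5, 5 to 10, 3 to 9, 0 to 0, 1 to 3, 4 to 13 and 1 to 9 calls in these 7 families. With the replicate block alone the counts were 4, 9, 7, 0, 3, 9 and 3, and beside the call given for Myh6 in 4F it gained Myh6 in 4F at day 11 against day 0 (adjusted p = 0.0262), Myl2 in R1 at day 11 against day 5 (0.035), Myl7 in 4F against R1 at day 5 (0.0495), and Myh6 and Myl4 in 4F against 3F at day 11 (0.0284 and 0.0372). It changed no other call.

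When the probe sets of each gene were averaged, 4 balances at day 11 turned: Myh7 minus Myh6 in 4F against R1 was -0.71 in place of 0.80, and Myl3 minus Myl4 was -0.02 in place of 0.78 in 3F against R1, -0.18 in place of 1.60 in 4F against R1 and -0.15 in place of 0.82 in 4F against 3F. Myl2 minus Myl7 in 4F against R1 was -0.13, and -0.28 to 0.00 without 1 array. The averaging took in the second probe sets of Myh6 and Myl4, whose group means spanned 0.14 and 0.44 between lowest and highest. It also took in the dimmer Myl3 sets, which spanned 3.54 and 1.90. Why the probe sets of a gene differ was not tested. Signal near the dim level limits Myl2 and Myh7 at day 0 and day 5. Leaving out replicate 3 of several groups together, and combining the block with only the compared arrays, were chosen after seeing the data.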
